A study of Mus musculus with 6 samples.

Results

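The library whose files are named KO_TNF was set against the one whose files are named basal_TNF, to give the levels that genes reached under TNF in knockout and in parental cells. The 2 libraries were chosen by the names of their deposited files from 6 in all, with 1 library per group and hence no replicates. All came from a mouse aortic endothelial line, given in the labels as Fn AB+/- and immortalised with TetOn-SV40, a T antigen gene under doxycycline control. Cells were expanded with doxycycline, moved to medium without it, and either left alone or treated with TNF at 30 ng/mL. The genotypes were the parental line (basal), a single-cell clone with a CRISPR deletion of Ptbp1 (KO), and that deletion line with a human PTBP1 cDNA (Rescue), so any trait of the founding clone and the loss of Ptbp1 cannot be told apart in a comparison of KO with basal. File names and labels differed for 4 libraries. The library named basal_TNF is labelled KO, that named KO_TNF is labelled WT_TNF, that named KO is labelled Rescue, and that named Rescue is labelled KO_TNF, while those named basal and Rescue_TNF are labelled WT and Rescue_TNF. Libraries are called by their file names throughout, and every direction given rests on those names. Under the labels the library with the highest level of the TNF target Ccl5 would be an untreated one. Totals were 19598779 to 21626824 expected counts per library. RNA was taken from whole cultures, so fewer cells with a transcript and less of it per cell cannot be told apart. Strand use in counting was not given, so overlapping genes and near-identical copies are uncertain.

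Ptbp1 is an RNA-binding protein that binds pyrimidine-rich stretches beside exons and mostly keeps those exons out of the messenger RNA. It also holds down its neuronal paralogue Ptbp2, whose transcript is marked for decay when a short exon is skipped. TNF acts through its receptor Tnfr1 and a ubiquitin scaffold to free NF-kB from its inhibitors, and NF-kB then turns on chemokines, adhesion molecules and its own inhibitors. A slower wave runs through Irf1 and the interferon signal transducers, which act on promoters with an interferon-stimulated response element (ISRE) and raise guanylate-binding proteins, antiviral effectors and antigen presentation.

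The sequences printed next belong to the genes that the results turn on. The 34-nt exon of Ptbp2 at chr3:119724612-119724645 on the minus strand (GRCm38, GENCODE vM21), which 3 annotated transcripts include as coding sequence, is the exon whose skipping silences that gene.
Ptbp2 exon: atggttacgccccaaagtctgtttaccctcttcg
The promoters of 5 TNF-raised genes (RefSeq, GRCm38.p6, the 250 bases before the start) show what genes of either outcome carry. Gbp5, Cxcl10 and Nfkbia ended lower in KO_TNF, and Isg15 and B2m ended equal. Capitals mark matches on either strand to the ISRE core GAAANNGAAA and to the kB consensus.
Gbp5 (chr3.0:142496684-142496933, plus strand): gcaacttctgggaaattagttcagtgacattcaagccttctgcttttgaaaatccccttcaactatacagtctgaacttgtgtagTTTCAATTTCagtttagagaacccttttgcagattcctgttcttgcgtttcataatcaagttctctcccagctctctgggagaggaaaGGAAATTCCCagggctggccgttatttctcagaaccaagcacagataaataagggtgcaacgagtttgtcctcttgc
Cxcl10 (chr5.0:92348890-92349139, minus strand): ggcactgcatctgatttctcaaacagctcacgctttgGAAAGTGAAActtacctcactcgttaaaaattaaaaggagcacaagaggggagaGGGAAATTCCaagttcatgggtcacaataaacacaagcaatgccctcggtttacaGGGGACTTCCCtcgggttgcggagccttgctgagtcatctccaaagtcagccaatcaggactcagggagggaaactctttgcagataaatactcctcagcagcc
Nfkbia (chr12.0:55492648-55492897, minus strand): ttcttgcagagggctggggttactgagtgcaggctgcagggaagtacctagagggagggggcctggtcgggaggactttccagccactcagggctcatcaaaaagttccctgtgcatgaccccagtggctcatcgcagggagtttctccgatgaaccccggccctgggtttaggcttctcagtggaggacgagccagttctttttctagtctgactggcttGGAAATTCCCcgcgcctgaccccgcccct
Isg15 (chr4.0:156200819-156201068, minus strand): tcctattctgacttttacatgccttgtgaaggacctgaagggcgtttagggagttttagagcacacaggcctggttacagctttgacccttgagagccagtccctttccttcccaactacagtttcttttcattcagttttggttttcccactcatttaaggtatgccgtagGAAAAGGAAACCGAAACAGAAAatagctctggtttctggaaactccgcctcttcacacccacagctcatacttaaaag
B2m (chr2.0:122147437-122147686, plus strand): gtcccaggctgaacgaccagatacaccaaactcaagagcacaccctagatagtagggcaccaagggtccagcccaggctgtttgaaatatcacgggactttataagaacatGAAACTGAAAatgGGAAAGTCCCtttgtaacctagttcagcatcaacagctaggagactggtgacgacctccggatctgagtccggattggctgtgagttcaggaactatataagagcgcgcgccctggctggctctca
In Gbp5 the ISRE match began 165 bases before the start and the kB match 77 bases before it. In Cxcl10 the ISRE match began at 213 bases and the kB matches at 159, 104 and 103, the last of which overlap. Nfkbia had a kB match at 29 bases and no ISRE match. Isg15 had 3 overlapping ISRE matches, at 78, 72 and 66 bases, and no kB match, while B2m had both, at 139 and 126 bases. Promoters with both motifs thus stood among the genes of either outcome.

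The targeted gene and its reporter were read first. Ptbp1 was at 236 TPM in basal, 270.2 in basal_TNF, 266 in KO, 275 in KO_TNF, 127 in Rescue and 129 in Rescue_TNF. Its messenger RNA was therefore as abundant in KO_TNF as in basal_TNF, with a log2 difference of 0.01 (95% counting interval -0.04 to 0.05). Its 175-nt exon at chr10:79859781-79859955 had a psi (the share of transcripts that include an exon) of 1 in basal and basal_TNF but 0.846 in KO and 0.85 in KO_TNF. The neighbouring 30-nt exon at chr10:79858952-79858981 behaved alike, with psi of 1 in both parental libraries against 0.854 and 0.849. In Rescue and Rescue_TNF both exons had a psi of 1, with 187 and 231 reads for the 30-nt exon but only 17.9 and 9 for the 175-nt one. In psi of the 30-nt exon the Rescue libraries thus matched the parental ones and not the KO ones. For the 175-nt exon their reads were too few to tell. That exon had 436 and 743 reads in basal and basal_TNF, and 143 and 201 in KO and KO_TNF. The 30-nt exon had 648 and 884, and 681 and 779, in the same order. By reads the 175-nt exon was thus scarcer in the KO and Rescue libraries than in the parental ones. Ptbp2 was at 22.8 and 20.7 TPM in basal and basal_TNF, 128 and 106 in KO and KO_TNF, and 42.2 and 45.3 in Rescue and Rescue_TNF. The 2 libraries named KO were thus the highest and the parental ones the lowest. The Ptbp2 exon printed above was included at a psi of 0.562 and 0.698 in basal and basal_TNF, 1 in KO and KO_TNF, and 0.891 and 0.942 in Rescue and Rescue_TNF. Ptbp3, deposited under its older symbol Rod1, ended equal at 30.0 TPM in basal_TNF and 28.2 in KO_TNF. Its exon use differed, however. A 34-nt exon of Ptbp3 at chr4:59546149-59546182 had a psi of 0.137 and 0.185 in basal and basal_TNF, and 0.521 and 0.728 in KO and KO_TNF. In Rescue and Rescue_TNF its psi was 0.266 and 0.204.

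The cells carried few endothelial markers. Of 19 endothelial markers 14 stayed under 1 TPM in every library, the defining genes Pecam1, Cdh5 and Kdr among them, and Eng (147 to 199.9 TPM) was the abundant exception. Of 18 smooth muscle and fibroblast markers 15 reached 10 TPM or more in some library, led by Col1a1 at 2569 to 6220 TPM. Their summed level was 6273 TPM in basal_TNF and 7298 in KO_TNF. Of 10 blood cell markers 7 and of 7 epithelial markers 7 stayed under 1 TPM in every library, with Ptprc, the pan-leukocyte marker, at 0. The other 3 blood cell markers, Cd68, Cd14 and Lyz2, reached 29.3, 27.2 and 11.9 TPM in their highest libraries.

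Most genes reached the same level under TNF in both libraries. A gene was called lower or higher where the whole counting interval of its ratio lay beyond 2-fold, equal where it lay within 1.5-fold either way, and undecided otherwise. Of 12683 genes with 10 counts or more in either library, 6575 (51.8%) ended equal, 866 (6.83%) lower and 497 (3.92%) higher in KO_TNF, and 4745 were undecided. The median log2 difference was -0.000553. A gene could pass the filter of 10 counts through 1 library alone, which left it little room to end equal. Intervals cover counting error only, and with 1 library per group a difference between cultures cannot be told apart from one between genotypes. In the untreated pair, KO against basal, 669 of 12773 genes (5.24%) were lower and 375 (2.94%) higher. Of the 866 genes that ended lower under TNF, 419 were lower without TNF too, 49 were equal, 16 were higher, 287 were undecided and 95 were under the filter.

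Of the genes that TNF raised, 49.8% ended lower, beside 6.83% of all genes tested. They were chosen in the third pair, Rescue_TNF against Rescue, which shares no library with the pair compared. There 253 of 12421 genes (2.04%) rose by more than 2-fold over the whole interval to 5 CPM (counts scaled to a common library size) or more. The same rule found 448 of 12822 genes (3.49%) in the basal pair and 92 of 12411 (0.741%) in the KO pair. Of the 253 genes, 126 ended lower in KO_TNF, 57 equal, 4 higher and 66 undecided, with a median log2 difference of -1.09. In Rescue_TNF against basal_TNF 85 of the 253 (33.6%) were lower, beside 5.17% of all genes, with a median of -0.59. That comparison shares Rescue_TNF with the choice of the genes. Of the 126, 50 were lower in Rescue_TNF too, so the shortfall was in part not particular to KO_TNF. The 126 had a median level of 8.005 TPM in basal and 62.7 in basal_TNF, 4.455 in KO and 9.575 in KO_TNF, and 5.175 in Rescue and 29.7 in Rescue_TNF. The 57 had 13.98 and 60.6 TPM in the basal pair, 36.2 and 60.0 in the KO pair, and 12.8 and 35.4 in the Rescue pair. The medians in basal_TNF were alike, while those in KO_TNF follow from how the sets were defined. Rescue_TNF lay between basal_TNF and KO_TNF for the first set and below both for the other. In the other deposited quantification 115 of the 117 genes of the lower set found there ended lower, and 49 of 49 of the equal set ended equal. List medians moved more, that of the chemokines to -2.51 and that of the adhesion genes to -0.74.

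**Figure D1:**
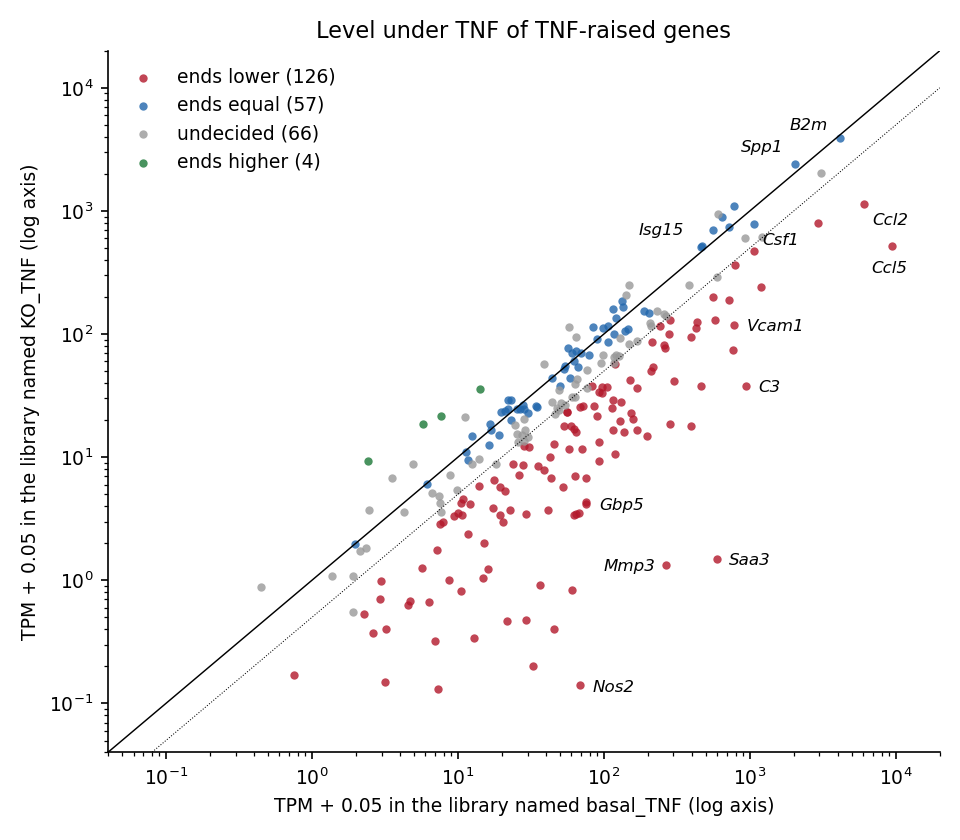
Level under TNF of the 253 TNF-raised genes: TPM plus 0.05 in basal_TNF (x axis, log) against KO_TNF (y axis, log), 1 point per gene, coloured by class. The solid line marks equal levels and the dotted line a 2-fold lower level; the 126 genes that ended lower lie under the dotted line, Nos2 among the farthest from it at 0.09 TPM in KO_TNF, and the 57 that ended equal follow the solid line.

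The leading TNF targets showed the shortfall in full. Ccl5, a chemokine for T cells and monocytes, was at 46.1 TPM in basal and 9418 in basal_TNF, at 203 in KO and 523 in KO_TNF, and at 16.7 in Rescue and 4594 in Rescue_TNF. Without TNF its level in KO was above that in either other untreated library, and with TNF it was the lowest of the treated ones. It ended 18.2-fold lower in KO_TNF (95% counting interval 17.4 to 19.1). Cxcl10, which draws activated T cells, had the same order, at 7.37 and 396 TPM, 30.5 and 94.5, and 8.09 and 177, and ended 4.24-fold lower (3.94 to 4.56). Gbp5, a GTPase that assembles on microbes and inflammasomes, was at 0.75 and 76.0 TPM in the basal pair, 3.62 and 4.15 in the KO pair, and 0.19 and 9.94 in the Rescue pair. It scarcely differed between KO and KO_TNF and ended 18.5-fold lower than in basal_TNF (15.5 to 22.2). Nos2, the inducible nitric oxide synthase, was at 0.13 and 68.4 TPM, 0 and 0.09, and 0 and 13.3 in the same order. With 4 counts in KO_TNF against 3125 in basal_TNF it ended 740-fold lower (289 to 2719).

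**Figure D2:**
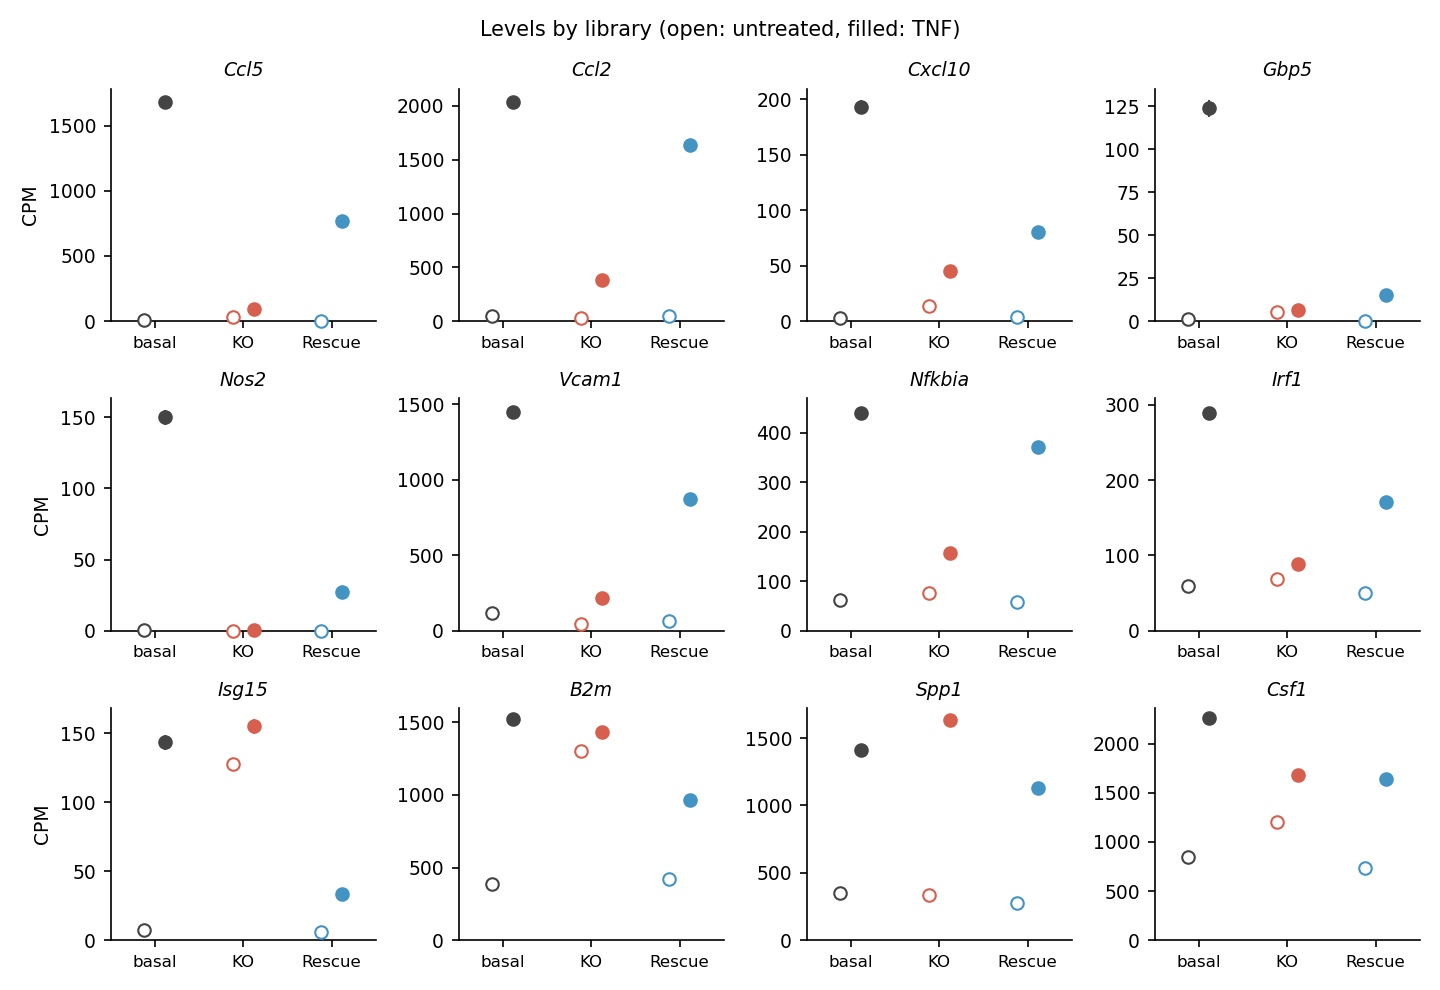
CPM of 12 genes (y axis from 0, own scale per gene) in the libraries named basal, KO and Rescue (x axis), untreated as open and TNF-treated as filled circles, with 95% counting intervals mostly smaller than the symbols. For the first 8 genes the filled KO circle is the lowest of the 3 filled ones, and for Isg15, B2m, Spp1 and Csf1 it is above the filled Rescue one.

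A larger share of chemokine genes than of all genes ended lower. Of 17 chemokine genes past the filter 11 ended lower (64.7%, beside 6.83% of all genes), 1 equal, 5 undecided and none higher. Their median log2 difference was -2.08. Some members, such as Cxcl3 and Cxcl5, had no count in KO_TNF and passed the filter through basal_TNF alone. Such members had little room to end other than lower. In Rescue_TNF against basal_TNF 7 of 18 were lower (38.9%, beside 5.17% of all genes), with a median of -1.13. Ccl2, which recruits monocytes, was at 149 and 6017 TPM in the basal pair, 105 and 1138 in the KO pair, and 169 and 5202 in the Rescue pair. It rose with TNF in KO as well but reached a level 5.35-fold lower (5.22 to 5.48), while Rescue_TNF came close to basal_TNF. Its neighbour Ccl7 ended 3.76-fold lower, the neutrophil chemokine Cxcl1 7.36-fold lower and the membrane-bound Cxcl16 11.4-fold lower. Cxcl5, another neutrophil chemokine, had no count in KO_TNF or KO and 700 in basal_TNF, hence a level at least 221-fold lower with the 0 set to 3 counts. The 1 member that ended equal was the stromal chemokine Cxcl12, at 1411 and 1139 TPM, a gene that was lower with TNF than without it.

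Adhesion molecules were divided. Vcam1, the ligand of the integrin VLA-4 on leukocytes, was at 67.4 and 784 TPM in the basal pair, 26.9 and 119 in the KO pair, and 41.4 and 510 in the Rescue pair, and ended 6.66-fold lower (6.45 to 6.87). Icam1, the ligand of LFA-1, was at 18.5 TPM in basal_TNF, 1.9 in KO_TNF and 2.46 in Rescue_TNF, so it was low in both treated libraries of the clone. Cd44, Cd47, F11r and Cd99l2 ended equal, with Cd44 at 240.1 and 236 TPM. Mcam and Alcam ended higher, by 2.19 and 2.38 on the log2 scale. In all, 4 of 14 adhesion genes ended lower (Vcam1, Icam1, Madcam1 and Jam3), 4 equal, 4 undecided and 2 higher, with a median of -0.46.

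Most genes of the receptor complex ended equal, though the share that ended lower was above that of all genes. Of 25 genes of the TNF receptor complex and its kinases 17 ended equal (68%, beside 51.8% of all genes). Another 6 ended lower (24%, beside 6.83%), 2 were undecided and none higher (median -0.24). Tnfrsf1a, which encodes Tnfr1, was at 158 TPM in basal_TNF and 135 in KO_TNF, and Rbck1 and Tab2, parts of the ubiquitin scaffold and of the Tak1 kinase complex, ended equal too. The kinase genes Ikbkb and Chuk and their partner Ikbkg ended equal. The 6 that ended lower were Traf1, Birc2 and Birc3 (adaptors and ubiquitin ligases), Ikbke and Map3k8 (kinases) and Ripk1, the scaffold kinase of the receptor. Of these 6, Traf1, Birc3 and Ikbke were TNF-raised, and Birc2, Map3k8 and Ripk1 did not meet that rule. Birc3 was at 11.03 and 52.4 TPM in the basal pair, 2.66 and 5.64 in the KO pair, and 5.86 and 23.4 in the Rescue pair. Ripk1 was at 26.1 TPM in basal_TNF and 9.04 in KO_TNF, and it was lower in untreated KO too, at 11.1 against 26.2.

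Among the subunits and inhibitors of NF-kB, 7 of 17 genes ended lower, 3 equal and 7 undecided (median -0.98). The 7 that ended lower were the subunit gene Relb and the inhibitor or regulator genes Nfkbia, Nfkbie, Bcl3, Tnfaip3, Tnip1 and Tnip3. Nfkb2 and Nfkb1, which encode the p52 and p50 precursors, ended equal at 190 and 155 TPM and at 114 and 81.2 TPM, as did the deubiquitinase Cyld. Nfkbia, the inhibitor IkBa, was at 84.6 and 557.6 TPM in the basal pair, 103.5 and 200.2 in the KO pair, and 84.5 and 509 in the Rescue pair, a level 2.82-fold lower in KO_TNF (2.70 to 2.93). Its untreated levels were alike in the 3 genotypes, so the difference appeared with TNF. Tnfaip3, the ubiquitin-editing inhibitor A20, was at 16.8 and 153 TPM, 10.6 and 22.6, and 13.1 and 66.5, and ended 6.83-fold lower (6.403 to 7.281). Tnip1, the A20 partner, ended 4.01-fold lower and Nfkbie 4.66-fold lower. Bcl3, a nuclear IkB protein, ended 18.9-fold lower but was low in all libraries of the clone, at 0.97 to 7.36 TPM against 62.2 in basal_TNF.

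Complement, acute-phase and inflammatory enzyme genes had the largest median shortfall of the lists examined. Some members passed the filter through basal_TNF alone, such as Saa3 (2196 counts there, 5 in KO_TNF) and Irg1 (941 and 4). Such members had little room to end other than lower, so the ranking rests partly on the filter. Of 21 genes past the filter 19 ended lower, none equal and 1 undecided (Xdh), with a median of -3.93, and the 13 TNF-raised members all ended lower. In Rescue_TNF against basal_TNF 14 of the 21 were lower, with a median of -2.16. Saa3, an acute-phase apolipoprotein, was at 0 and 592 TPM in the basal pair, 0 and 1.44 in the KO pair, and 0 and 30.8 in the Rescue pair. C3, the central complement protein, was at 26.7 and 946 TPM, 1.14 and 37.9, and 0.67 and 155. TNF raised C3 in each pair, from an untreated level that was lower in KO and Rescue than in basal, and KO_TNF ended 25.2-fold lower (24.2 to 26.4). Cfb, the protease of the alternative complement pathway, ended 131-fold lower, with 10 counts in KO_TNF. Irg1, the older symbol of Acod1, makes itaconate and ended 223-fold lower with 4 counts. Ch25h, which makes an antiviral oxysterol, ended 78.6-fold lower. Ptges, the prostaglandin E synthase, was at 67.3 TPM in basal_TNF, 3.47 in KO_TNF and 32.8 in Rescue_TNF, and the soluble pattern receptor Ptx3 at 283, 18.5 and 199.

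Among matrix proteases, Mmp2, Mmp3, Mmp9, Mmp10, Mmp13 and Adamts9 ended lower. Mmp3, a matrix metalloprotease, was at 11.2 and 267 TPM in the basal pair, 0.4 and 1.28 in the KO pair, and 3.92 and 77.35 in the Rescue pair. Timp1 and Timp2, the inhibitors of these enzymes, ended equal, at 591 and 541 TPM and at 694 and 791 TPM. Of 19 genes 6 ended lower, 8 equal and 5 undecided (median -0.77). Mmp2 was near 0 in KO without TNF too, at 0.22 TPM against 155 in basal and 33.96 in Rescue.

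Cytokine genes ended lower in 6 of 15 cases (40%, beside 6.83% of all genes), equal in 2 and higher in 1 (Il33, at 0.39 and 3.63 TPM). Another 6 were undecided, and the median was -1.42. Some members, such as Csf2 and Il1a, had no count in KO_TNF and passed the filter through basal_TNF alone. They had little room to end other than lower, so the count and the median rest partly on the filter. The 2 that ended equal were growth factors of macrophages that signal through the same receptor. Csf1 was at 436 and 1063 TPM in the basal pair, 593 and 777 in the KO pair, and 387 and 826 in the Rescue pair. Il34 was at 28.8 TPM in basal_TNF and 31.7 in KO_TNF. Lif, a cytokine of the interleukin-6 family, ended 2.67-fold lower while Rescue_TNF, at 41.7 TPM, exceeded basal_TNF at 30.9.

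Of 18 cell death genes 4 ended lower (22.2%, beside 6.83% of all genes) and 7 equal (38.9%, beside 51.8%). The other 7 were undecided, and the median was -0.64. The 4 that ended lower were the death receptor gene Fas (169.7 and 36.3 TPM), the inflammatory caspases Casp1 and Casp4, and the pore-forming Gsdmd. The caspase genes were low in untreated KO as well, Casp1 at 3.3 TPM against 31.4 in basal. Casp8, Fadd, Cflar and Mcl1, which act at or below the death receptors, ended equal.

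The 57 TNF-raised genes that ended equal fell into 2 kinds by their level without TNF. In 24 genes KO was already more than 2-fold above basal without TNF, and no gene of the 57 was lower there. These 24 had a median of 9.94 TPM in basal and 82.0 in basal_TNF but 65.3 in KO and 81.9 in KO_TNF, and 6.96 and 22.7 in the Rescue pair. Of the 24, 12 belong to the list of interferon effectors. Isg15, a ubiquitin-like antiviral modifier, was at 26.97 and 464 TPM in the basal pair, 443 and 507 in the KO pair, and 22.4 and 116 in the Rescue pair. KO stood near the treated level before TNF was given, and Rescue did not. B2m, the light chain of MHC class I, was at 1135 and 4132 TPM, 3797 and 3923, and 1300.3 and 2818, and H2-K1, a heavy chain, at 43.5 and 724, 623 and 742, and 65.6 and 431.

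In the other 33 genes KO was not called higher without TNF. Their median was 22.4 TPM in basal and 53.2 in basal_TNF, 27.1 and 52.0 in the KO pair, and 17.2 and 39.6 in the Rescue pair. The median log2 rise with TNF was 1.32 in the basal pair, 1.06 in the KO pair and 1.34 in the Rescue pair. Among them were Spp1, the matrix cytokine osteopontin, at 549 and 2041 TPM in the basal pair, 524 and 2395 in the KO pair, and 452 and 1773 in the Rescue pair. Jun and Fosl1, subunits of AP-1, ended equal at 134 and 185 TPM and at 116 and 159 TPM. Myc, at 97.9 and 112 TPM, Mapk6, at 121 and 134, and the ERK phosphatase Dusp6, at 22 and 29.3, ended equal as well. The 4 TNF-raised genes that ended higher were Gpr149, Acsbg1, the epidermal growth factor receptor ligand Btc and the ERK phosphatase Dusp5. Btc was at 7.64 and 21.6 TPM and Dusp5 at 14.2 and 35.6 TPM in basal_TNF and KO_TNF.

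Of the 126 TNF-raised genes that ended lower, 30 were lower without TNF too, 23 were equal, 12 were higher, 47 were undecided and 14 were under the filter. The 12 had medians of 5.975 and 126 TPM in the basal pair, 26.1 and 27.6 in the KO pair, and 5.085 and 31.3 in the Rescue pair. They were Ccl5, Cxcl10, Zbp1, Gbp3, Gbp5, Gbp6, Gbp7, Iigp1, Ifi47, Psmb8, Psmb10 and Ube2l6. In these genes KO stood above basal before TNF and KO_TNF stopped short of basal_TNF. Only Ccl5 and Cxcl10 of the 12 met the TNF-raised rule in the KO pair. Genes equal without TNF and lower with it included Gbp2, Fas, Tnip1, Ccl7, Nfkbia and Irf1. Genes lower in both included Mmp3, C3, Ptges, Cxcl16, Vcam1 and Birc3.

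**Figure D3:**
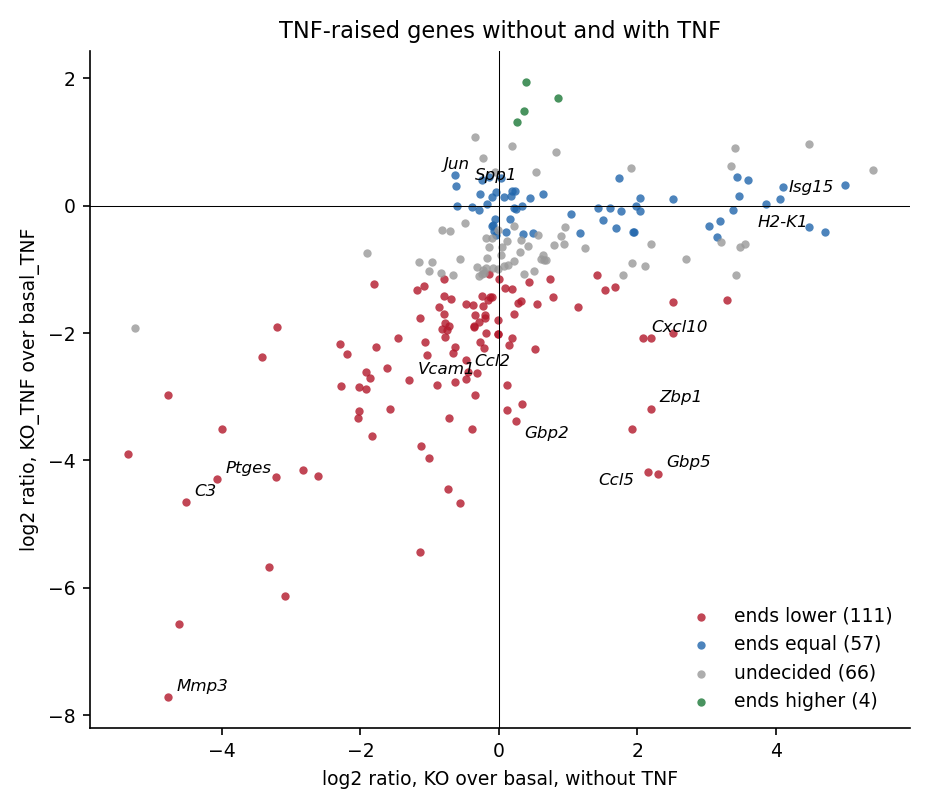
Log2 ratio of KO to basal without TNF (x axis) against that of KO_TNF to basal_TNF (y axis) for the 238 TNF-raised genes with a ratio in both pairs, coloured by class. Genes that ended lower spread below 0 on both sides of the vertical line, and genes that ended equal form a cluster at the origin and a band reaching past 4 on the x axis.

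The interferon lists carried this split. Of 36 interferon effectors 20 ended equal, 14 undecided, 1 lower (Herc6) and 1 higher (Ifi27l2a), with a median of -0.31 under TNF and 2.83 without it, so the list stood above basal before TNF and slightly below it after. Its equal share, 20 of 36, was near the 51.8% of all genes. In Rescue_TNF against basal_TNF 31 of the 36 were lower, with a median of -2.01. Ifit3 and Oas1a, members of this list, were undecided. They and their near-identical copies are uncertain because of that likeness too. Of 26 sensors and transcription factors 16 ended equal, 4 lower, 5 undecided and 1 higher (median -0.23). Stat2, Irf7 and Irf9, factors of the interferon response, ended equal, with Irf7 at 9.42 and 84.9 TPM in the basal pair, 112 and 113 in the KO pair and 5.53 and 24.9 in the Rescue pair. Irf1 and Jak2 ended lower. Irf1, which NF-kB turns on, was at 58.3 and 259 TPM, 66.2 and 81.2, and 51.2 and 166, a level 3.23-fold lower (3.07 to 3.41), and the kinase gene Jak2 ended 6.61-fold lower.

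Guanylate-binding proteins, which are also interferon-responsive, ended differently from the effectors. Of 15 genes of that list, with the immunity-related GTPases, 10 ended lower, 2 equal and 3 undecided, with a median of -1.51 under TNF and 1.93 without it. Gbp4, with no count in KO_TNF, passed the filter through basal_TNF alone and had little room to end other than lower. In Rescue_TNF against basal_TNF 14 of the 15 were lower, with a median of -2.88, so the shortfall was not particular to KO_TNF. Gbp2 was at 46.5 and 769 TPM in the basal pair, 54.0 and 74.4 in the KO pair, and 14.2 and 184 in the Rescue pair, and ended 10.4-fold lower (9.96 to 10.95). The 2 that ended equal were Irgm1, at 184 and 209 TPM, and Tgtp2, which has a near-identical copy. Antigen presentation was divided, with 5 of 19 genes lower, 5 equal and 9 undecided (median -0.64, and 1.54 without TNF). B2m, H2-K1, H2-T22, H2-T23 and the peptide transporter Tap1 ended equal, and H2 genes can share reads. The immunoproteasome genes Psmb8 and Psmb10, the activator Psme1, and Tapbp and Tapbpl, which load peptides, ended lower. Psmb8 was at 4.85 and 116 TPM, 27.4 and 29.2, and 4.88 and 31.2. Zbp1, a sensor of left-handed nucleic acid, sided with the guanylate-binding proteins, at 2.97 and 137 TPM, 10.7 and 15.98, and 1.66 and 31.3.

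Of 19 immediate-early factors 8 ended equal, 8 were undecided and 3 ended lower (Fosl2, Maff and Cebpb), and a median of -0.17. Junb was undecided, at 268 and 140 TPM in basal_TNF and KO_TNF, and Ier3 at 169 and 87.8.

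**Figure D4:**
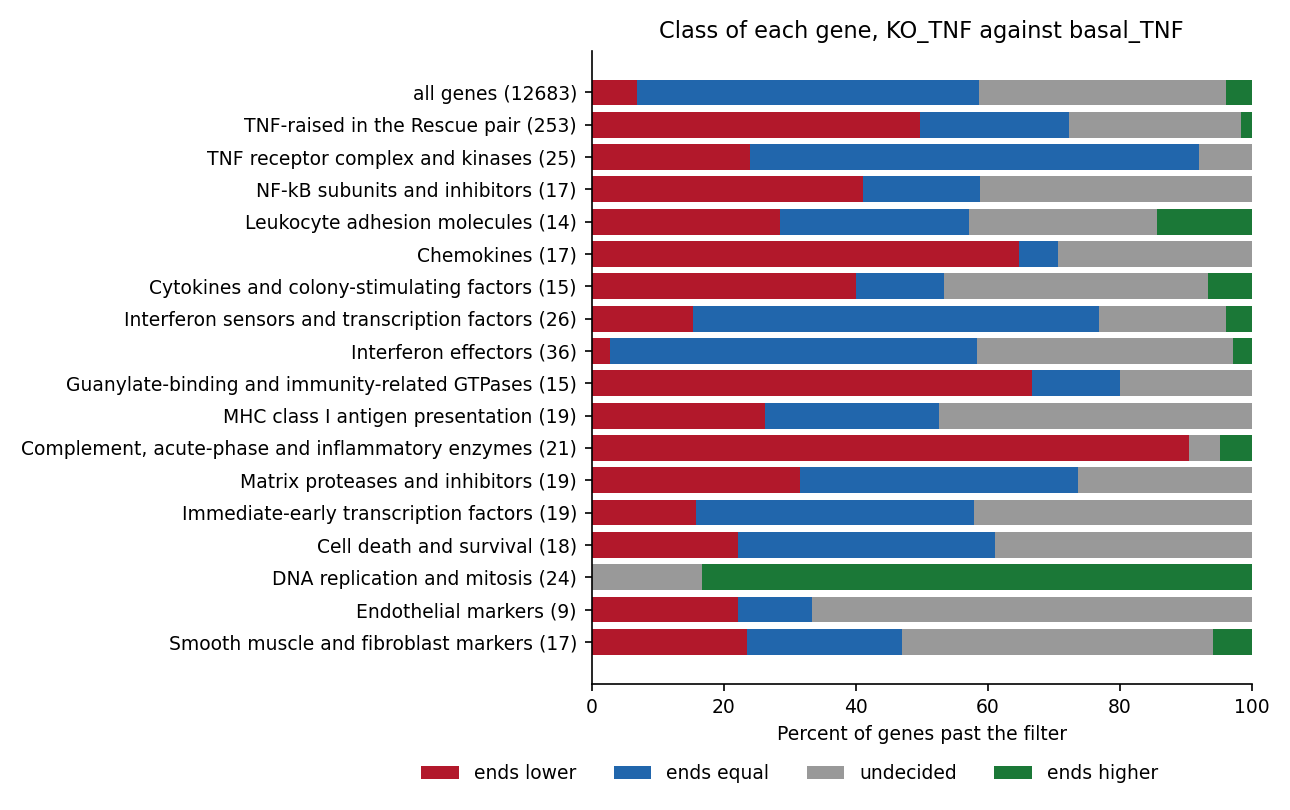
Percent of genes past the filter (x axis) that ended lower, equal, undecided or higher in KO_TNF against basal_TNF, for all genes, the TNF-raised genes and 16 gene lists (number of genes in brackets). The lower share is 6.83% over all genes and is longest for the complement and enzyme list, and the replication list alone is mostly higher.

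The genes with the largest differences included some that TNF raised and some that it did not. Efemp1, a matrix glycoprotein, was at 94.7 TPM in basal_TNF and had no count in KO_TNF. Its level in KO_TNF was 657-fold lower with the 0 set to 3 counts, and at least 534-fold lower by its 95% counting interval. Without TNF it was at 163 TPM in basal and 0.15 in KO, and it was at 0.53 and 0.41 TPM in Rescue and Rescue_TNF. It was thus near 0 in all libraries of the clone, with or without TNF. Cd34, a sialomucin of progenitor and endothelial cells, was at 136 and 137 TPM in the basal pair and at 0.45 to 0.73 TPM in the 4 libraries of the clone, Rescue included. S1pr3, a sphingosine phosphate receptor, and Slit3, a guidance ligand, were among the lowest as well. S1pr3 was at 5.78 TPM in basal and 21.8 in basal_TNF, so it was higher with TNF, and at 0.02 to 0.11 TPM in the libraries of the clone. Slit3 was at 7.18 TPM in basal_TNF, 0 in KO_TNF and 2.92 in Rescue_TNF. Hp, haptoglobin, went from 0.51 TPM in basal to 42.4 in basal_TNF and had no count in KO_TNF. Those that ended highest were Tmem146, the phosphodiesterase gene Pde2a, Sprr1a, the water channel gene Aqp5, Megf10, the semaphorin receptor gene Plxna4, the troponin gene Tnnt2, Cdh13, Mdga1 and Syt13. Pde2a was at 0.71 TPM in basal_TNF, 21.1 in KO_TNF and 4.14 in Rescue_TNF. Of these 10 genes 9 were higher without TNF too, and Plxna4, at 2.68 and 0.24 TPM in the basal pair and 5.56 and 4.41 in the KO pair, was undecided there.

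Genes of cell division moved with the comparison. Of 24 replication and mitosis genes 20 ended higher in KO_TNF and 4 were undecided, with a median log2 difference of 1.32, against 1.09 without TNF. Mki67, a marker of cycling cells, was at 38.7 and 25.6 TPM in the basal pair, 94.5 and 86.6 in the KO pair, and 69.7 and 66.8 in the Rescue pair. Smooth muscle and fibroblast markers were 4 lower, 4 equal, 8 undecided and 1 higher of 17 (median 0.06). Thy1, Pdgfra, Dcn and Lum ended lower and Col3a1 higher, with Thy1 at 41.5 TPM in basal_TNF and 0.12 in KO_TNF and in Rescue_TNF. The part of the cycling state and of these marker differences in the TNF genes was not tested.

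Splicing was read in the same libraries. Of 82433 exons with a psi and 20 reads or more in both libraries, 186 (0.226%) were called. These differed in psi by 0.3 or more, with deposited intervals that did not overlap. The 82433 were not limited to exons that are ever skipped, so 0.226% is no share of alternative exons. Of the 186, 124 were more included in KO_TNF and 62 less. Counted by gene symbol, with all genes that lack one taken as 1, the 186 exons lay in 155 of 9507 genes (1.63%). By class they lay in 2 of 277 genes that ended lower (0.722%), 90 of 5487 equal (1.64%) and 10 of 284 higher (3.52%). Among TNF-raised genes, 1 of 82 that ended lower had such an exon (Tmem176b) and 1 of 41 that ended equal (Ralgapa2). In the untreated pair 176 of the 186 exons had the reads, 158 differed in the same direction, and 92 did so by 0.3 or more. Phldb2, which anchors cortical microtubules, included a 183-nt exon (chr16:45774163-45774345) at a psi of 0.0207 in basal_TNF, 0.895 in KO_TNF and 0.337 in Rescue_TNF. Pbrm1, a chromatin remodelling subunit, included a 104-nt exon (chr14:31023067-31023170) at 0.243, 0.928 and 0.334. In both, Rescue_TNF stood nearer to basal_TNF. In Scarb1, a lipoprotein receptor gene, a 129-nt exon (chr5:125281105-125281233) went the other way, at 0.842, 0.299 and 0.75. Mlkl, the executioner of necroptosis below Tnfr1, included a 50-nt exon (chr8:111315493-111315542) at 0.955, 0.625 and 0.946, and without TNF at 0.958 in basal and 0.461 in KO. Its level was undecided, at 105 and 50.2 TPM.

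**Figure D5:**
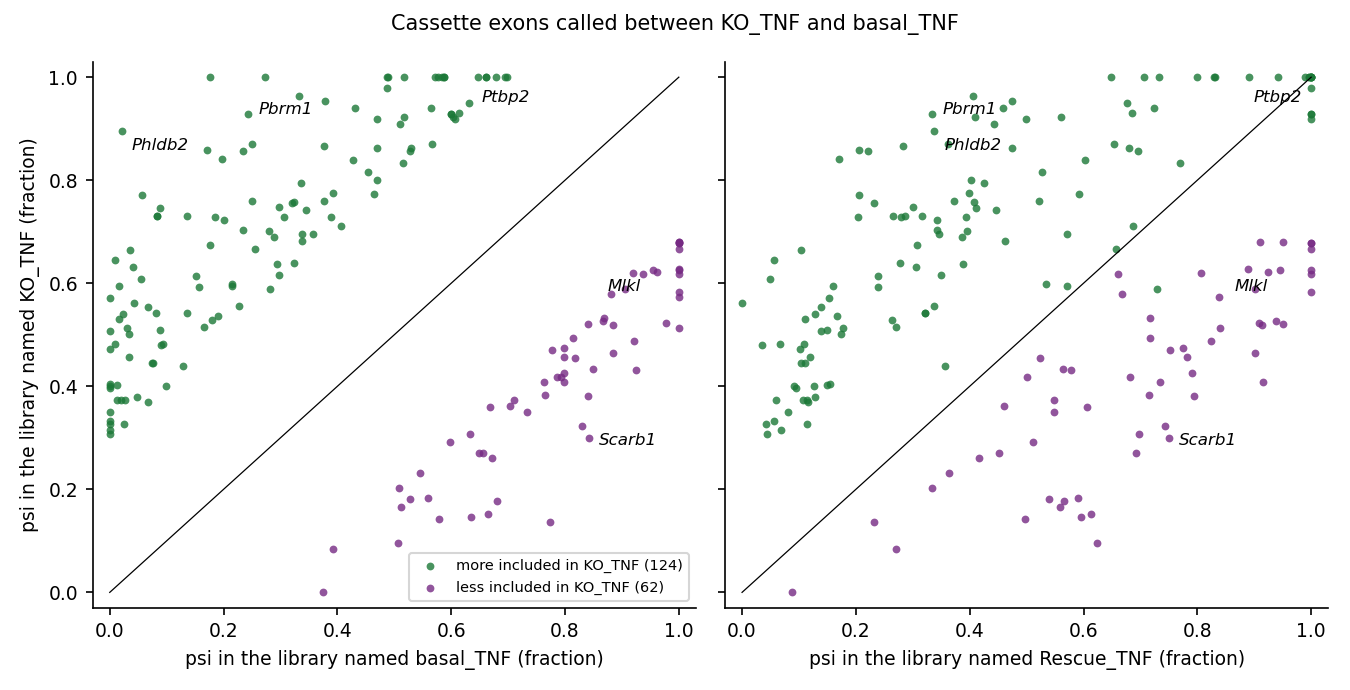
Psi (fraction included) of the 186 called cassette exons in KO_TNF (y axis) against basal_TNF (left, x axis) and Rescue_TNF (right, x axis), 1 point per exon. The empty band along the diagonal on the left is set by the call rule in psi of 0.3 either way.

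Motif matches in the promoters describe letters in these windows and not binding. Over 27025 RefSeq promoters of the same length, 3.04% held an ISRE core and 7.01% a kB match on either strand. Promoters were listed for 92 of the 126 TNF-raised genes that ended lower and for 44 of the 57 that ended equal, while Ccl5, Nos2, Ccl2, Vcam1 and Zbp1 had none listed. Of the 92, 8 (8.70%) held the ISRE core and 22 (23.9%) a kB match. Of the 44, 8 (18.2%) held the ISRE core and 8 (18.2%) a kB match. Split by the level without TNF, the ISRE core was in 6 of 18 equal genes and 4 of 8 lower genes that were higher in untreated KO, against 4 of 84 lower genes that were not. All 10 listed promoters of the guanylate-binding and immunity-related GTPases held the ISRE core, as Gbp5 does above, and 10 of 27 promoters of interferon effectors did, as Isg15 does. Most genes of the first list ended lower under TNF and most of the other equal or undecided.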

How the data were processed

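RNA sequencing measured 6 libraries, 1 per group, so there was no spread between replicates and no p-value is given. Gene tables deposited by the authors hold expected counts and TPM, from RSEM per the submitters' processing notes and the file headers. For the library named KO the table lists transcripts, and sums over each gene were taken here. The authors also deposited estimated counts of another quantification, used here as an alternative, and psi (percent spliced in), a fraction from 0 to 1 with its reads and interval per exon, per the file headers. Libraries were made with a SMARTER mRNA-Seq kit, per the labels' protocols. For the aligner, genome build and strand setting, the sources used here state nothing.

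Libraries were grouped by the names of their files, as the comparison requires. Expected counts were rounded to whole numbers and scaled by TMM factors from edgeR 4.0.16 over the 6 libraries, whose totals were 19598779 to 21626824 counts. Ratios carry exact (Clopper-Pearson) 95% intervals from scipy 1.17.1, which cover counting error only. A gene needed 10 counts in at least 1 of the 2 libraries, and a count of 0 was set to 3 for a bound. The class rule was tested on simulated data. Levels are TPM, and differences are ratios of scaled counts on the log2 scale unless given as folds. Other scalings (DESeq2 1.42.0 size factors among them), filters, bounds and groupings were tried. Coordinates are GRCm38, to which 182 of the 186 called exons fit as GENCODE vM21 exons. Named genes were Ccl5, Gbp5, Cxcl10, Nos2, Ptbp1, Ptbp2, the 10 genes at each end of the comparison, the leading TNF-raised genes of each class and the most abundant members and few equal members of each list. Members and lists were chosen with earlier results of these data known. Other genes that the text names from the lists or among called exons were chosen after their values were seen. Some genes are not reported here.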

Additional observations from a re-analysis of the deposited data

Results flagged for a closer look

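For 5 of the named genes the difference between the parental and the knockout files had opposite directions without and with TNF. Each was more than 2-fold higher in KO than in basal without TNF and more than 2-fold lower in KO_TNF than in basal_TNF. The log2 difference with TNF minus that without was -6.51 for Gbp5, -6.35 for Ccl5, -5.39 for Zbp1, -4.16 for Cxcl10 and -4.03 for Gbp3. Medians of 3 gene lists lay on opposite sides of 0 in the same way, at least 0.3 from it in both pairs. Their median with TNF minus that without was -3.43 for the guanylate-binding and immunity-related GTPases, -3.15 for the interferon effectors and -2.18 for MHC class I antigen presentation. The effectors' median with TNF, -0.31, lay within 0.3 of 0 in the other quantification (-0.27) and on the TPM scale (-0.29). With 1 library per group none of these differences was tested.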

How the results depend on the processing

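TMM factors over the 2 libraries, library totals and DESeq2 size factors kept every count within 1.5 times its value, and list medians moved by at most 0.1 on the log2 scale. The other quantification moved 10 of 78 list values and the TPM scale 6 of 21 medians. With 100 counts required, 571 genes ended lower. With a 1.5-fold bound, 1452 genes ended lower and 1014 higher, and 7 TNF-raised genes ended higher. With a tighter bound for equal, 3192 genes and 25 TNF-raised genes ended equal. With TNF-raised genes chosen in the pair named basal, 216 ended lower and 103 equal, a choice that shares a library with the comparison. With 50 reads behind both values, 110 cassette exons were called. With the labels' groups (the library labelled KO_TNF against that labelled WT_TNF), 496 genes ended lower, as did 60 of the TNF-raised genes chosen in the labelled Rescue pair, of which 98 ended higher. The medians of TNF-raised genes, DNA replication genes and the single epithelial gene past the filter were then 0.21, -0.40 and -2.06. The cause was not tested, though these are other libraries by construction. No paired analysis was possible because KO_TNF and basal_TNF, the groups compared, had 1 library each, and for the same reason no replicate could be left out. The TPM alternative gives medians only.

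Of 12683 genes 4745 were undecided. Some had wide intervals at low counts, and others lay between the bounds for equal and lower at high counts, as Ifit3 did (1.51 to 1.62-fold lower).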

Other observations

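Several abundant matrix and stromal genes were lower with TNF than without it in each of the 3 pairs of files. Col1a1, which encodes a chain of type I collagen, was at 6220 TPM in basal and 3010 in basal_TNF, at 4554 in KO and 2822 in KO_TNF, and at 5843 in Rescue and 2569 in Rescue_TNF. Cxcl12, a chemokine of stromal cells, was at 4251 and 1411 TPM, at 2417 and 1139, and at 2419 and 1050 in the same order. Timp3, an inhibitor of matrix proteases, was at 1253 and 521 TPM, at 514 and 261, and at 579 and 205. The level without TNF was higher than that with TNF in 3 of 3 pairs for each of these genes. Col1a1 and Cxcl12 ended equal between KO_TNF and basal_TNF (log2 differences of -0.11 and -0.42), while Timp3 was undecided at -1.01. Col3a1, a further collagen gene, was at 597 and 192 TPM in the basal pair and at 635 and 485 in the KO pair, so that KO_TNF ended higher by 1.32 on the log2 scale.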
